A study of Rattus norvegicus with 8 samples.

Results

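The caspases are the cysteine proteases of cell death and inflammation, and Apaf1 is the scaffold on which one of them is activated. The 7 genes described here are Casp2, Casp8, Casp9, Apaf1, Casp6, Casp1 and Casp12, chosen by gene name on the array, and they are measured by 8 of the 41012 probes, or 7 of 35561 gene names. Casp9 has 2 probes and each of the others has 1. Initiator caspases (Casp2, Casp8, Casp9) are activated on protein platforms and start the cascade, the executioner Casp6 is cut by them and cleaves cell proteins, and Casp1 and Casp12 belong to the inflammatory branch. Casp9 is activated when cytochrome c leaves the mitochondria and binds Apaf1, and Casp8 is activated at death receptors. Caspases are made as inactive precursors, so an mRNA level is not a measure of their activity.

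Thymocytes, the immature T cells of the thymus, were taken from adrenalectomized male Sprague-Dawley rats, with the thymi of 3 animals pooled for each preparation, in both groups. For 6 h the cells were kept either untreated (Control, 4 arrays) or in 100 nM of the synthetic glucocorticoid dexamethasone (Dex, 4 arrays). RNA was hybridized to 1-color Agilent arrays with probes of 60 bases. Values are log2 signals after quantile normalization, and a change is the Dex mean minus the Control mean on that scale.

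The probe sequences of Casp8, Casp9, Casp1 and Casp12, which hold an open reading frame and over 35% G and C, are shown in lower case because each value below is the signal of that stretch alone, and because the 2 Casp9 probes read different stretches of 1 transcript. Positions are those of build rn3 in the scanner output. The Casp8 probe lies at chr9:57575101-57582187 and the Casp12 probe at chr8:2109935-2110430, and both spans exceed 60 bases. The Casp9 probes lie at chr5:160729729-160729788 (probe 1) and chr5:160716883-160716942 (probe 2), and the Casp1 probe at chr8:2032917-2032976.
Casp8: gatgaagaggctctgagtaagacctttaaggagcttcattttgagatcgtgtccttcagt
Casp9 probe 1: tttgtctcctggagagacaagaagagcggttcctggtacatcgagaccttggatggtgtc
Casp9 probe 2: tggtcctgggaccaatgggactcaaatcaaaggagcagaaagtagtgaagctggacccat
Casp1: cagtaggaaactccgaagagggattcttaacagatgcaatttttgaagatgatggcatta
Casp12: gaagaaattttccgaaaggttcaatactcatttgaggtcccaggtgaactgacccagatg
The probes of Casp2 (chr4:70323105-70323164), Apaf1 (chr7:27953606-27953666, minus strand) and Casp6 (chr2:227360260-227360319) are given by position, the first 2 because they hold a stop codon in every frame and Casp6 because its one open frame lies in 28.3% G and C.

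No member probe passed the test across the array. After quantile normalization the groups did not overlap for 2 genes, Casp2 and Casp8, both with lower signal in Dex, and with each array scaled to its 75th percentile they did not overlap for Casp8 (lower) and Casp9 probe 1 (higher), as for 7.37% of all probes under that scaling. By limma with Benjamini-Hochberg adjustment over all probes, 0 of 8 member probes had an adjusted p under 0.05, where 0.778% of all probes did. At an unadjusted p under 0.05 by limma, 4 of 8 probes passed (Casp2, Casp8 and Casp12 lower, Casp9 probe 1 higher), where 10.6% of all probes did. With the replicate number as a block, 3 of 8 passed, Casp2 no longer among them (limma p 0.0891), where 12.4% of all probes did. The signal to noise statistic of the study's methods was recomputed here on 4 arrays per group and 70 assignments. The paper used 3 biological replicates and permutations of samples and probes, so the calls here are not the study's own. At a nominal p of 0.01 and a fold change of 1.2, the recomputed statistic called 2 of 8 (Casp2 and Casp8), where it called 6.79% of all probes. All Dex arrays lay on one side of all Control arrays for the same 2 of 8, as for 9.11% of all probes. The median change of the 7 genes was -0.30, beside 0.00 over all probes. The labels do not say that replicates are separate cultures, and each group has more arrays than the biological replicates stated in the methods, so p-values measure the spread between these arrays, which may be technical. In whole cultures, fewer cells of a type and less RNA per cell cannot be told apart.

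**Figure D1:**
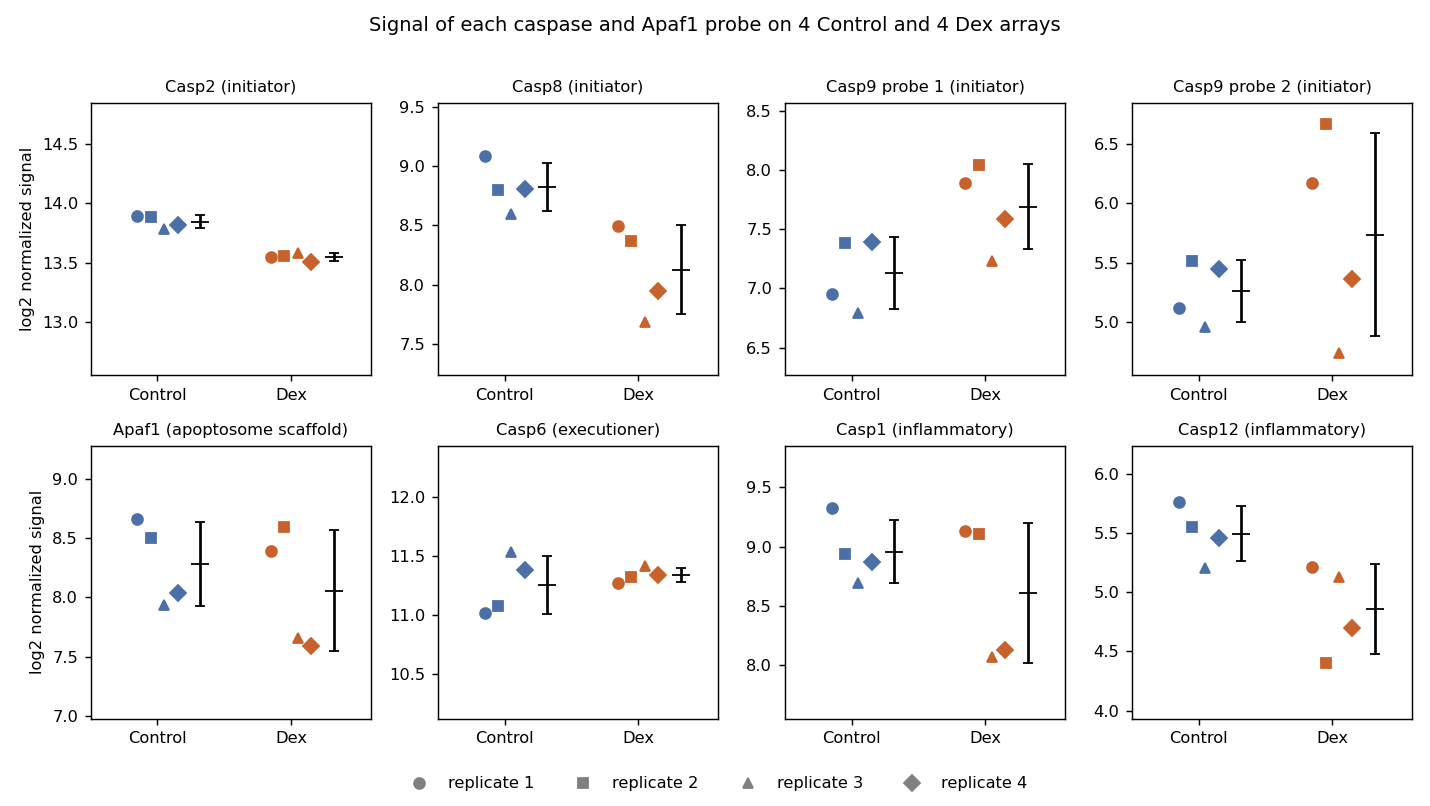
Log2 normalized signal (y axis) of the 8 probes on 4 Control and 4 Dex arrays, with 1 symbol per replicate number and the mean and SD in black. Every panel spans the same range of log2 units, and the groups are apart in the Casp2 and Casp8 panels.

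Among the initiators, Casp2, which can be activated on a platform built by Pidd1, had log2 signals of 13.89, 13.89, 13.78 and 13.82 on Control arrays 1 to 4 and of 13.54, 13.55, 13.58 and 13.51 on Dex arrays 1 to 4. Every Dex array was below every Control array, and the replicates lay close together (SD 0.05 in Control and 0.03 in Dex, n = 4 each). The change was -0.30 (95% interval -0.59 to -0.00), which is 81.3% of Control, with a limma p of 0.0488 and an adjusted p of 0.470. With each array scaled to its 75th percentile instead, the Casp2 groups overlapped, the Dex arrays read 13.92, 14.08, 13.21 and 13.06 (SD 0.51) and the change was -0.25. With normexp background correction the change was -0.30 and passed (limma adjusted p 0.0147).

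Casp8, the initiator of the death receptor route, had log2 signals of 9.09, 8.80, 8.59 and 8.80 in Control and of 8.50, 8.37, 7.68 and 7.95 in Dex. The highest Dex array was below the lowest Control array by 0.10, and Dex 3 and Dex 4 were the lowest. The change was -0.70 (95% interval -1.21 to -0.18), or 61.7% of Control, with a limma p of 0.0137 and an adjusted p of 0.295. The Casp8 groups stayed apart with 75th percentile scaling, where the change was -0.65.

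Casp9, the initiator activated on Apaf1, had log2 signals at probe 1 of 6.95, 7.39, 6.79 and 7.39 in Control and of 7.89, 8.04, 7.24 and 7.58 in Dex. Dex 3 lay within the Control range and the other Dex arrays above it. The change was 0.56 (95% interval 0.01 to 1.10), with a limma p of 0.0462 and an adjusted p of 0.460. With 75th percentile scaling all Dex arrays were above all Control arrays at probe 1, and the change was 0.60. Probe 2 read 5.12, 5.51, 4.96 and 5.45 in Control and 6.17, 6.67, 4.73 and 5.37 in Dex. There Dex 1 and Dex 2 were above every Control array while Dex 3 was below every one. Its change was 0.48 (95% interval -0.45 to 1.41, limma adjusted p 0.745), and it was 0.17 without Dex 2 and 0.81 without Dex 3. Both probes had the same sign, and probe 2 had the wider interval.

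Apaf1 had log2 signals of 8.66, 8.50, 7.93 and 8.03 in Control and of 8.39, 8.59, 7.65 and 7.59 in Dex. The groups overlapped, and in both of them replicates 1 and 2 were above replicates 3 and 4. The change was -0.23 (95% interval -0.90 to 0.45, limma adjusted p 0.846), which leaves room for a change of either sign. It was -0.40 without Dex 2 and -0.07 without Dex 4.

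Casp6, the executioner, had log2 signals of 11.02, 11.08, 11.54 and 11.38 in Control and of 11.27, 11.32, 11.41 and 11.34 in Dex. All Dex arrays lay inside the Control range. The change was 0.08 (95% interval -0.30 to 0.47, limma adjusted p 0.904), and it was 0.00 without Control 1 and 0.18 without Control 3. With 75th percentile scaling Dex 1 (11.56) and Dex 2 (11.69) were above all Control arrays and Dex 4 (10.98) below all of them. The Casp6 change was 0.10 there. The 3 initiators did not change in the same direction (-0.30 for Casp2, -0.70 for Casp8 and 0.56 for Casp9 probe 1). Their mean change minus that of Casp6 was -0.23, with an SD of 0.36 over Control and 0.29 over Dex arrays. For this contrast the groups overlapped. Between arrays of the same number it was -0.26, -0.28, -0.10 and -0.28 for replicates 1 to 4 (SD 0.09), lower in Dex in 4 of 4. With 75th percentile scaling these differences were -0.39, -0.48, 0.06 and -0.00 (SD 0.27), without one direction. Leaving out 1 array moved it from -0.11 (without Dex 3) to -0.39 (without Control 3). This contrast has 1 executioner gene and was given no test.

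In the inflammatory branch, Casp1, which processes interleukin-1 beta, had log2 signals of 9.33, 8.94, 8.70 and 8.87 in Control and of 9.13, 9.11, 8.07 and 8.12 in Dex. Dex 1 and Dex 2 lay within the Control range and Dex 3 and Dex 4 below it. The change was -0.35 (95% interval -1.05 to 0.35, limma adjusted p 0.752), and it ranged from -0.53 without Dex 1 to -0.17 without Dex 3. With normexp background correction it turned to 0.70. It was -0.12 there once spots of uneven local background, Casp1 on Control 1 among them, were left out. The quantile normalized Casp1 values above include that spot. Casp12 had log2 signals of 5.76, 5.55, 5.20 and 5.46 in Control and of 5.21, 4.40, 5.13 and 4.70 in Dex. Dex 1 exceeded the lowest Control array by 0.01 and the other Dex arrays were below all Control arrays. The change was -0.63 (95% interval -1.16 to -0.11), with a limma p of 0.0238 and an adjusted p of 0.363. With normexp background correction, which here adds an offset of 50 and put the Control arrays at 7.03 to 7.30, it was -0.19 (limma adjusted p 0.421). With 75th percentile scaling Dex 3 (5.77) and Dex 4 (5.51) were not below all Control arrays. The scanner software flagged the Casp12 probe as well above background on 4 Control and 3 Dex arrays, and the other 7 probes on all 8.

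**Figure D2:**
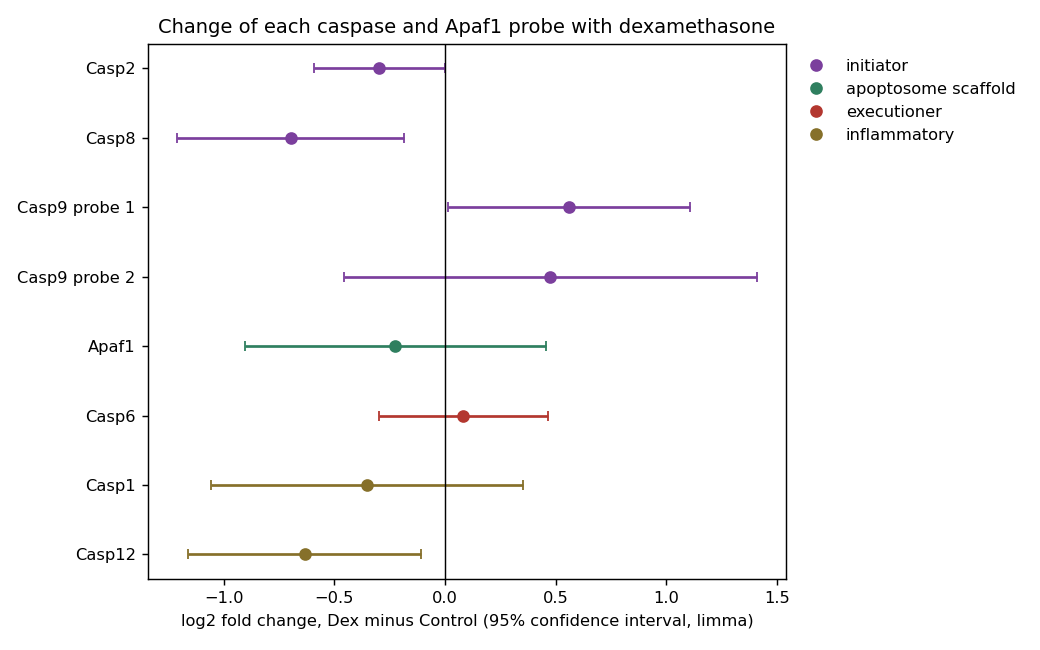
Log2 fold change (x axis, Dex minus Control) of each probe with its 95% confidence interval from limma, colored by role. The intervals of Casp2, Casp8, Casp9 probe 1 and Casp12 leave out 0 before adjustment over all probes.

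The Dex minus Control difference was also averaged within replicates 1 and 2 and within replicates 3 and 4, as a description with no test. The averages were 1.11 and -0.15 for Casp9 probe 2, -0.02 and -0.69 for Casp1, 0.80 and 0.32 for Casp9 probe 1, and -0.85 and -0.42 for Casp12. They were -0.51 and -0.88 for Casp8, 0.25 and -0.08 for Casp6, -0.09 and -0.36 for Apaf1, and -0.34 and -0.25 for Casp2. The sign differed between the averages for Casp9 probe 2 and Casp6. Casp2, Casp8 and Casp12 were lower in Dex in 4 of 4 same-numbered pairs, and Casp9 probe 1 was higher in 4 of 4, so 4 of 8 probes went one way in all pairs, where 24.6% of all probes did. With 75th percentile scaling 3 of 8 did (Casp8 lower, both Casp9 probes higher), where 16.7% of all probes did, and Casp2 was lower in 3 pairs and Casp12 in 2. Before normalization, Dex 1 and Dex 2 had a 75th percentile of 425 and 401 intensity units, and Dex 3 and Dex 4 had 266 and 264, and its part in these differences was not tested. Slide and treatment cannot be told apart for 6 of the 8 arrays. On the slide that holds both, Dex 3 minus Control 1 was -0.31 for Casp2, -1.41 for Casp8, 0.28 for Casp9 probe 1, -0.38 for Casp9 probe 2, -1.01 for Apaf1, 0.40 for Casp6, -1.26 for Casp1 and -0.64 for Casp12. The Casp1 value includes the Control 1 spot, whose local background was flagged as uneven (15901, against 43.5 to 48 on the other arrays).

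**Figure D3:**
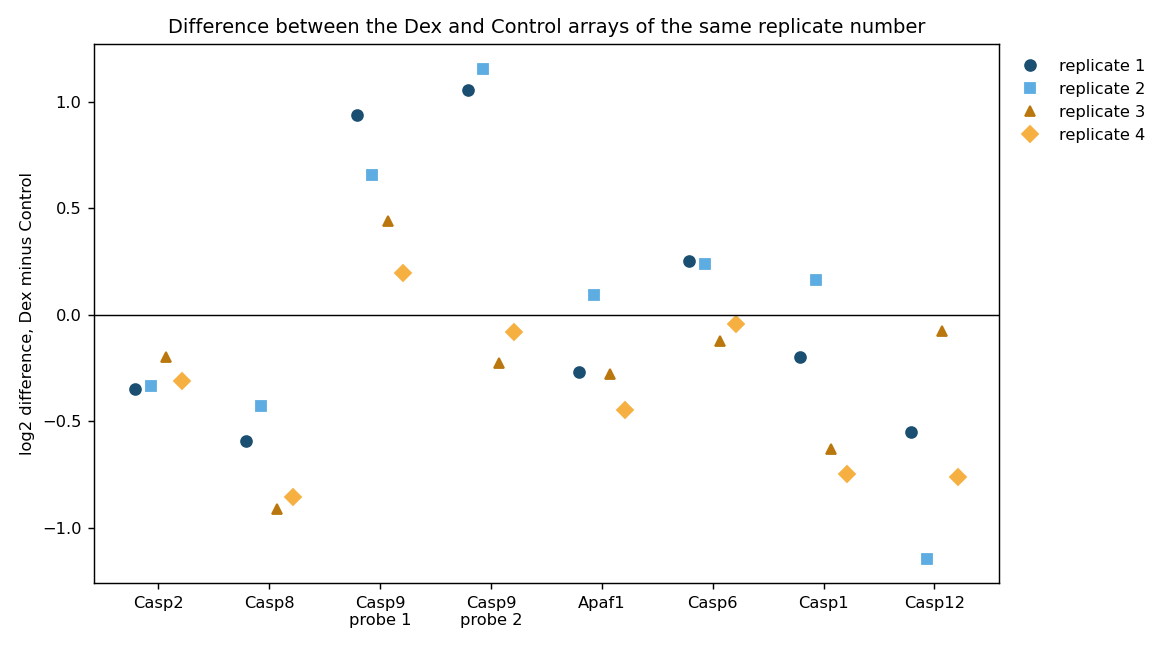
Log2 difference (y axis) between the Dex and the Control array of each replicate number for the 8 probes. On these quantile normalized values Casp2, Casp8 and Casp12 lie below 0 in all 4 replicates and Casp9 probe 1 above it, while with 75th percentile scaling Casp2 did so in 3 and Casp12 in 2.

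Of 63 genes in 4 lists of partners, inhibitors, adaptors and substrates, 54 were on the array, and the brightest probe stood for each. By limma, 1 of 54 passed at an adjusted p under 0.05 (0.778% of all probes), and 12 had an unadjusted p under 0.05 (10.6% of all probes), of which 10 had a lower mean in Dex. The median change was -0.10, with a lower mean in Dex for 40 genes and a higher one for 14, where 49.98% of all probes had a lower mean. Gsn (gelsolin), an actin-severing protein that caspases cut, read 12.75, 12.45, 12.68 and 12.40 in Control and 15.09, 15.25, 15.03 and 14.88 in Dex. It rose by 2.49 (limma adjusted p 0.000655). Dffa, the inhibitor of the caspase-activated DNase, changed by 0.77 (limma adjusted p 0.0857).

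Of the 10 mitochondrial partners 5 had a lower mean in Dex and 5 a higher one. Cycs (cytochrome c), the ligand of Apaf1, had the largest change among them, -0.51 (limma adjusted p 0.227). Its Dex arrays were all below its Control arrays. Of the 7 inhibitors of apoptosis 6 had a lower mean in Dex, with the largest change in Birc3, -0.67 (95% interval -1.05 to -0.28, limma adjusted p 0.166), followed by Birc5 (survivin) at -0.66 (adjusted p 0.353). Of the 16 adaptors and platforms 12 had a lower mean, with the largest change in Aim2, a DNA sensor that recruits Casp1, at -0.58 (limma adjusted p 0.469). Cflar, the inactive homolog that binds Casp8 at death receptors, changed by -0.51 (limma adjusted p 0.329). Of the 21 substrates 17 had a lower mean, among them Bid, which Casp8 cuts, at -0.66 (limma adjusted p 0.112) and Il1b, the substrate of Casp1, at -1.32 (limma adjusted p 0.409). The Il1b value rests in part on Control 2, which read 9.45 against 7.14 to 7.91 on the other Control arrays, and without it the change was -0.83.

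**Figure D4:**
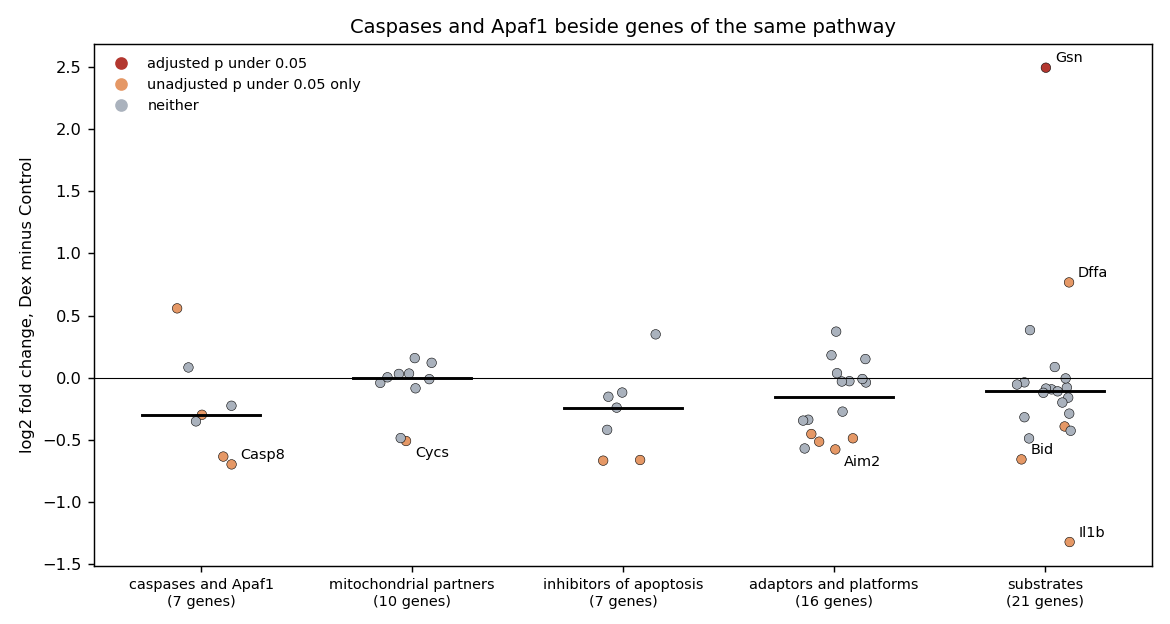
Log2 fold change (y axis, Dex minus Control) of the 7 genes and of 54 genes in 4 pathway lists, with 1 point per gene and the median as a bar. Gsn, at 2.49, is the gene past the adjusted threshold.

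Markers of the cell types a thymus preparation could hold were read beside these values. All 11 thymocyte markers on the array were well above background on every array, and 8 of them had a lower mean in Dex. The summed signal of 10 of them was 311906 to 345324 in Control and 246020 to 346876 in Dex. The 9 macrophage markers summed to 4390 to 6106 in Control and 4100 to 8530 in Dex, and their part in the Casp1 values was not tested. Of the 32 markers in these and the B cell, stromal and erythroid lists, 0 had a limma adjusted p under 0.05 and 4 an unadjusted p under 0.05, where 0.778% and 10.6% of all probes did.

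For each member, 5681 RefSeq genes well above background on all arrays were searched (5682 for Casp12). Over the 8 arrays, the genes whose signal followed each member most closely were found by Pearson correlation as a description. They were MGC112830 (0.99) and Ccnd3 (0.99) for Casp2, Gpx1 (0.99) and Dnajc14 (0.99) for Casp8, and Arl11 (0.98) and Ogfr (0.96) for Casp9. For Apaf1 Gtf2h4 (0.99) is given, for Casp6 Zfp276 (0.96) and Cat (0.94), for Casp1 Ip63 (0.99) and Atp1b3 (0.99), and for Casp12 Actr2 (0.96) and Clcn3 (0.95). The points share arrays and normalization. Each gene named was picked for its high value out of all searched, so that value alone shows no relation to the member.

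Promoters of 6 of the 7 genes, the 250 bases before the start, were read from RefSeq on GRCr8. The hexamer of the glucocorticoid receptor, AGAACA on either strand, was in the Casp2 promoter alone of the 6, and in 17.5% of 33469 promoters of the same length. The full element, AGAACA followed after 3 bases by TGTTCT, was in 0 of the 6 and in 0.012% of all. The AP-1 site TGANTCA and the cAMP response element TGACGTCA, also searched on both strands, were in 0 of the 6, and in 6.34% and 1.59% of all. The Casp2 promoter (chr4:72116107-72116356, plus strand) is shown with that match, on the opposite strand, in capitals.
Casp2 promoter: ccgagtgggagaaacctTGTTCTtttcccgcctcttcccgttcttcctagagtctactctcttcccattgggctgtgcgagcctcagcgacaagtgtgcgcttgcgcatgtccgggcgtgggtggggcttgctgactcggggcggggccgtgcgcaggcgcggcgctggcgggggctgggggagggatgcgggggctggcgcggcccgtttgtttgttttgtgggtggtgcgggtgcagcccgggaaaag
The promoters of the inflammatory pair had 42.0% (Casp1) and 40.4% (Casp12) G and C, and the other 4 had 60.8% to 74.0%, beside a median of 51.2% over all promoters. Casp1 and Casp12 (chr8:10872580-10872829 and chr8:10926938-10927187, both plus strand) shared a stretch of 14 letters, the longest of any pair of the 6, which 3 of the 33469 promoters hold. It is in capitals below.
Casp1 promoter: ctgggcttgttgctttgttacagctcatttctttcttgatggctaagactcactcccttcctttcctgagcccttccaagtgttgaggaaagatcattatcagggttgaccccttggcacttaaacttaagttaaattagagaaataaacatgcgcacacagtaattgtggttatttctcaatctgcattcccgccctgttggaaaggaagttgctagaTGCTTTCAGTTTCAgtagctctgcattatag
Casp12 promoter: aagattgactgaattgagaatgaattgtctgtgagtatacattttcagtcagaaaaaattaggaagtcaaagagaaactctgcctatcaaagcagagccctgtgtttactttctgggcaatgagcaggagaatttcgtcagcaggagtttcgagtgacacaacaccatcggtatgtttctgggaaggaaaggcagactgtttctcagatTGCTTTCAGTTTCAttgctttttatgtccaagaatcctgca
A match is a description of the letters, and binding was not measured.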

How the data were processed

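Per the file headers, the spot intensity values were made by Feature Extraction software (version 9.5.3.1), which subtracts background and removes spatial trends on 1-color arrays. The deposited intensity values are not normalized between arrays. The authors also deposited log2 values, quantile normalized and summarized by median polish, and these steps were repeated for this work on the intensities, without outlier spots. Signal was compared by limma (version 3.58.1, R version 4.3.3), lmFit and eBayes, two-sided, adjusted over 41012 probes at 0.05. The study's signal to noise statistic was set against its values, pooled over probes, under the 70 ways to assign 8 arrays to 2 groups of 4. Procedures were tested on simulated data. The deposited software flags gave the probes well above background.

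The members and lists were chosen with earlier results of these data known. Named genes were the 7 members, the pathway genes called and the gene of largest change in each list, and the 2 RefSeq genes most like each member, of which 1 is not reported here. Further pathway genes (Dffa, Birc5, Cflar, Bid and Il1b) were named after their values were seen. A list of other caspases was not analysed here. The main limma fit and the signal to noise statistic did not pair the arrays. Same-numbered arrays were treated as pairs only in the replicate block and in the differences between arrays of the same number. Deviations of same-numbered arrays correlated at 0.40, 0.13, 0.55 and 0.18, all above 0.1. Some pairs of different numbers reached similar or higher values (0.40 for Control 1 and Dex 2, 0.19 for Control 2 and Dex 1, 0.39 for Control 3 and Dex 4), so the correlations alone do not identify each pair. Each array was counted as 1 sample by its label: the methods state 3 biological replicates per group, while 4 arrays per group are deposited, and which arrays are separate preparations is not given in the sources used here. Alternatives were other scalings, background corrections, filters and blocks, and leaving out each array. The number of arrays limits the precision.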

Additional observations from a re-analysis of the deposited data

How the results depend on the processing

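Over the whole array, 319 probes were called by limma, and 166 with 75th percentile scaling, 912 with normexp, 562 without dim probes, 81 with the replicate block (pairing by number), 1 with slide as a fixed block, 1838 with slide as a random block (estimated correlation within a slide -0.24, so below 0), 670 with a block for replicates 1 and 2 versus 3 and 4, 2784 by the signal to noise statistic, and 96 to 249 with 1 array left out. The replicate block called 0 member probes, as without it. Member probes called were 1 with normexp (Casp2, limma adjusted p 0.0147) and 2 by the signal to noise statistic. Pathway genes called were 6 with normexp, 3 without dim probes, 0 with slide as a fixed block, 5 with slide as a random block and 9 by the signal to noise statistic. Initiators minus Casp6 was -0.87 with slide as a fixed block, which rests on Dex 3 and Control 1, -0.12 with slide as a random block, and -0.39 to -0.11 with 1 array left out. Casp9 probe 2 turned to -0.38 with slide as a fixed block (limma adjusted p 0.845), where the value is Dex 3 minus Control 1. With normexp, Casp12 was at -0.19 and Casp1 turned to 0.70 (limma adjusted p 0.847). The Casp1 spot on Control 1 had a local background of 15901, flagged as uneven, against 43.5 to 48 on the other arrays. With such spots left out, an alternative chosen after seeing the data, Casp1 was at -0.12, and 899 probes, 1 member probe (Casp2, limma adjusted p 0.0201) and 6 pathway genes were called. Of the single probes' values, 133 kept direction and call, 2 passed the threshold and 2 turned.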

Other observations

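Across the 8 arrays, on quantile normalized values, the 3 highest Pearson correlations of the 21 pairs of members are given first. Apaf1 and Casp1 had 0.94, which was 0.94 also after the group means were taken out, and Casp8 and Casp1 had 0.85 and 0.96. Casp2 and Casp12 had 0.83 and 0.57. With 75th percentile scaling their Dex arrays went opposite ways, at 13.92, 14.08, 13.21 and 13.06 for Casp2. Those of Casp12 were 4.64, 3.26, 5.77 and 5.51. Casp2 and Casp8 had 0.81, and 0.21 after the group means were taken out. Casp6 was below 0 with all 6 other members on these values, from -0.70 with Apaf1 to -0.05 with Casp9. With 75th percentile scaling Casp6 read 11.56 and 11.69 on Dex 1 and Dex 2, and 11.13 and 10.98 on Dex 3 and Dex 4. There Casp2, Casp8, Casp9 probe 1, Apaf1 and Casp1 were also higher on Dex 1 and Dex 2, and Casp12 was lower. Correlations were not computed with that scaling, so the signs hold for quantile normalized values alone. The array deviations correlated at 0.62 for Dex 1 and Dex 2 and at 0.72 for Dex 3 and Dex 4. Between these pairs of arrays they correlated at -0.86 to -0.80, and the part of this split in the member correlations was not tested. The member correlations are descriptions over arrays normalized together, and no explanation was tested.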
